A study of Gallus gallus with 12 samples.

Results

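The Fanconi anaemia core complex and its substrate, the ID complex, were followed at the RNA level in chicken DT40 cells. Members were the genes of the deposited tables whose symbol was *FANCA*, *FANCB*, *FANCC*, *FANCD2*, *FANCE*, *FANCF*, *FANCG*, *FANCI*, *FANCL* or *FANCM*. The rule used symbols only and no expression value. Of these 10 names, 9 were matched to a gene among the 24356 genes listed for each library. *FANCE* was not analysed here because no gene was matched to it by symbol. DT40 is a B cell line in which genes are readily disrupted, and the study used it to ask how Timeless and the helicase DDX11 act during replication of G-quadruplex DNA. Poly(A) RNA-seq was carried out on 3 independent populations of each of 4 lines, 12 libraries in all. The *fancj* line lacks FANCJ, a helicase encoded by *BRIP1*, and had been made before the study. The *timeless* line carries a CRISPR-Cas9 disruption of *TIMELESS*. *DDX11* was disrupted by CRISPR-Cas9 in some *ddx11* clones and by conventional gene targeting in another. The wild-type line carries none of these changes. The clone used for RNA is not stated for either gene, so differences peculiar to a clone cannot be told apart from those of the disrupted gene. No drug treatment is given for these libraries.

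In the Fanconi anaemia pathway, FANCM is a DNA translocase that brings the core complex to blocked replication forks and interstrand crosslinks. The core complex is a large ubiquitin ligase: FANCL is its catalytic RING subunit, held with FANCB, while FANCA with FANCG and FANCC with FANCE and FANCF make up its other modules. It attaches ubiquitin to FANCD2 and FANCI, which then clamp onto DNA and bring in nucleases and other repair factors. FANCJ acts with BRCA1 after this step and is not needed for it. Many of these genes have been disrupted in DT40, where their loss gives sensitivity to crosslinking agents. Most of this pathway is regulated on the protein, which RNA-seq does not measure.

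Library totals of expected counts ranged from 13406041 to 50160512 (median 20125298). *TIMELESS* was called lower in *timeless* (24.3, 21.4 and 22.6 TPM, transcript abundance scaled to gene length and library total, in replicates 1 to 3) than in wild type (40.8, 34.2 and 48.4 TPM). It was also below every wild-type library in those labelled *fancj*, at 30.5, 21.3 and 8.88 TPM (log2 fold change -1.04, adjusted p = 0.12), so its RNA did not separate *timeless* from *fancj*. *DDX11* was called lower in *ddx11* (4.79, 7.03 and 4.53 TPM) than in wild type (10.5, 12.7 and 15.5 TPM). *BRIP1* was at 7.81, 8.47 and 1.23 TPM in the libraries labelled *fancj*, against 8.52, 5.16 and 6.59 TPM in wild type. Its RNA therefore did not separate these libraries from wild type, and every direction given for them rests on their labels. Replicate 3 labelled *fancj* stood apart from the other libraries by gene length. Relative to replicates 1 and 2 of its line, its median TPM ratio was 0.926 for genes under 1500 bases and 0.273 for genes over 5000 bases. All 8 B cell markers examined were detected in every line, and of the T cell markers *CD3E* and *CD4* did not exceed 1.51 TPM. The T cell marker *CD3D* was nevertheless present at 50.5 to 215 TPM, and an entry of *CD8A* reached 12.2 TPM in replicate 1 labelled *fancj*. Of markers of other cells, *COL1A2* was at 22.6, 1.79 and 0.76 TPM in the libraries labelled *fancj*, and up to 11.3 TPM in the other lines. *CSF1R* reached 3.67 TPM in replicate 2 labelled *fancj*, and *COL1A1* 5.28 TPM in wild type. *ITGA2B*, *MARCO* and *COL3A1* did not exceed 1.41 TPM.

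All 9 members were expressed in all 12 libraries. *FANCL* had the highest mean, 43.0 TPM over the 12 libraries, and *FANCB* the lowest, 4.81 TPM. TPM takes gene length into account, but within lines it still varied with length between libraries, most in replicate 3 labelled *fancj*, so levels of short and long members are compared with that limit. Between them came *FANCD2* at 36.8 TPM, *FANCI* at 20.1, *FANCG* at 18.1, *FANCF* at 17.7, *FANCA* at 11.2, *FANCC* at 8.29 and *FANCM* at 8.09 TPM. Transcripts of the ligase subunit and of *FANCD2* were thus the most abundant on average. Several neighbours in this order were not separated. *FANCG* was above *FANCF* in 5 of the 12 libraries, *FANCC* above *FANCM* in 6 and *FANCL* above *FANCD2* in 9. By contrast *FANCD2* was above *FANCI* in all 12, and *FANCM* above *FANCB* in 11. Across libraries the highest value of a member was 1.71 to 2.10 times its lowest for 6 members. For *FANCM* it was 3.82 times, for *FANCA* 4.35 times and for *FANCI* 12.1 times, and the lowest library of these 3 was replicate 3 labelled *fancj*.

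**Figure D1:**
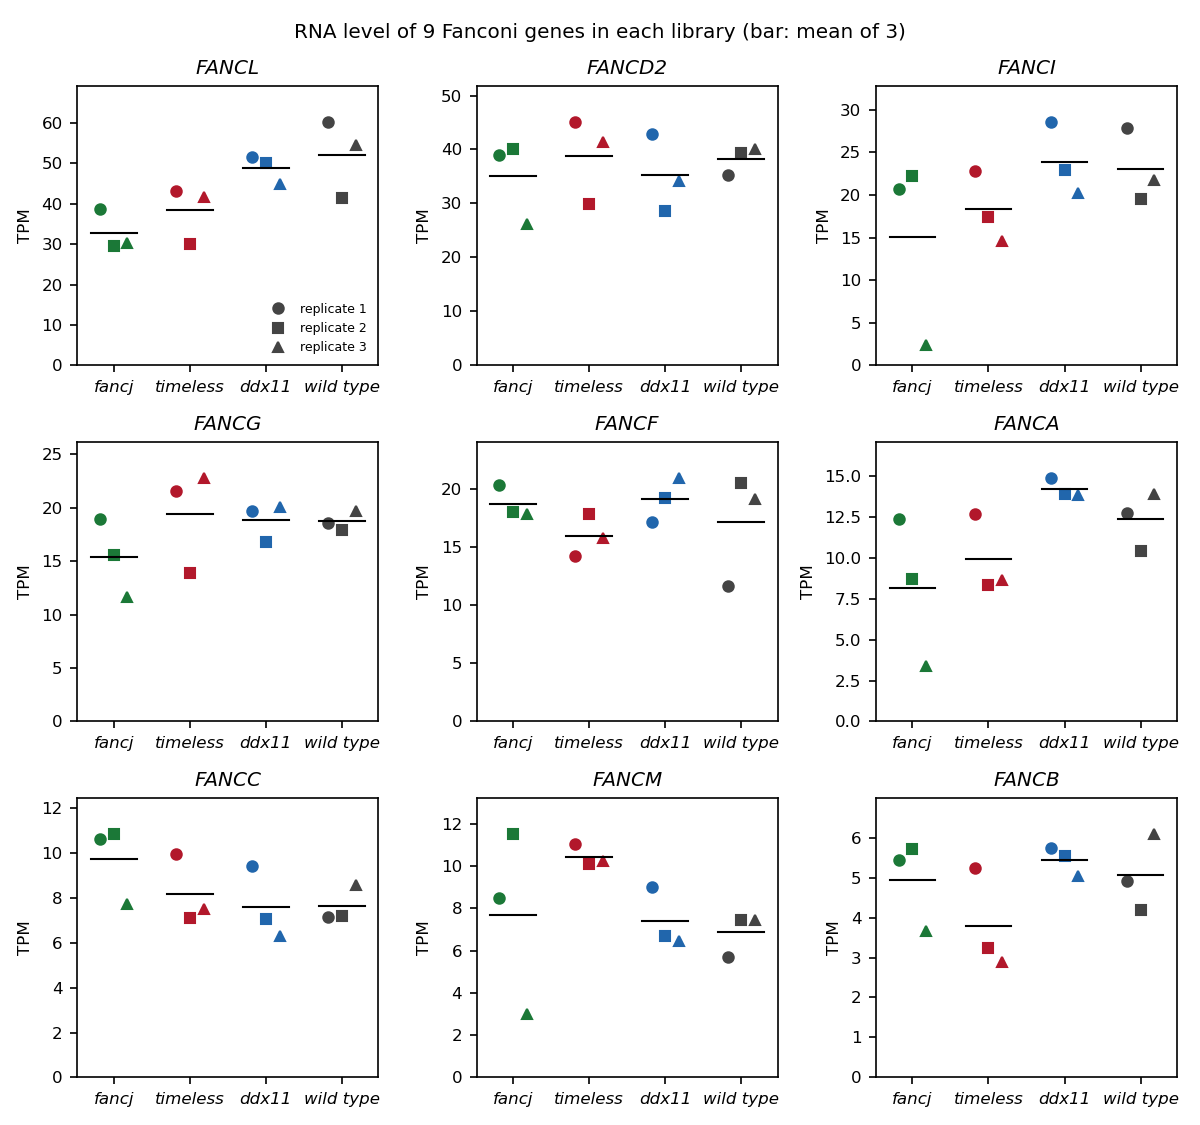
TPM of the 9 members in each library, 1 panel for each gene on a linear axis from 0, with the lines ordered *fancj*, *timeless*, *ddx11* and wild type. Each point is 1 library and each bar is the mean of 3. *FANCI* in replicate 3 labelled *fancj* lies at 2.35 TPM, below every other library.

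The first question was whether RNA of the pathway follows the loss of FANCJ or of the other proteins. Each mutant was compared with wild type by the edgeR quasi-likelihood test on rounded expected counts. P-values were adjusted by Benjamini-Hochberg over every gene whose mean reached 1 TPM in a line of the pair. All 9 members were tested. At an adjusted p under 0.05, 0 of 9 members passed in the libraries labelled *fancj*, where 4.28% of all genes tested did. DESeq2 also called 0 members there, where it called 1319 of all 11824 genes tested. In the same libraries 1 member, *FANCL*, had an unadjusted edgeR p under 0.05. In *timeless*, 1 of 9 members passed, against 8.20% of all genes. In *ddx11*, 0 of 9 passed, against 2.62%, with 0 members at an unadjusted p under 0.05. DESeq2 called 0 members there, where it called 547 of all 11470 genes. At the adjusted threshold of edgeR the members' counts were therefore close to those of genes at large. The share of all genes at an unadjusted p under 0.05 was not taken for any comparison. The member called was *FANCM*, and it rose in *timeless*.

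Differences from wild type were small for most members. The median log2 fold change of the 9 members was -0.10 in the libraries labelled *fancj*, -0.05 in *timeless* and -0.02 in *ddx11*, beside 0.03, 0.01 and 0.00 for all genes tested. The median absolute log2 fold change was 0.26, 0.26 and 0.08 for the members in the same order of lines, beside 0.36, 0.29 and 0.19 for all genes. The libraries of 1 member did not overlap with wild type in the libraries labelled *fancj* (23.0% of all genes), those of 1 in *timeless* (27.6%) and those of 0 in *ddx11* (14.4%). These 3 comparisons share the wild-type libraries. In a culture, fewer cells expressing a gene and less RNA per cell cannot be told apart. The 95% intervals bound what could have been missed. In *ddx11* they ran from -0.52 at the lowest to 0.66 at the highest across the 9 members, whereas in the libraries labelled *fancj* they reached -2.11 for *FANCI* and 0.96 for *FANCF*.

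**Figure D2:**
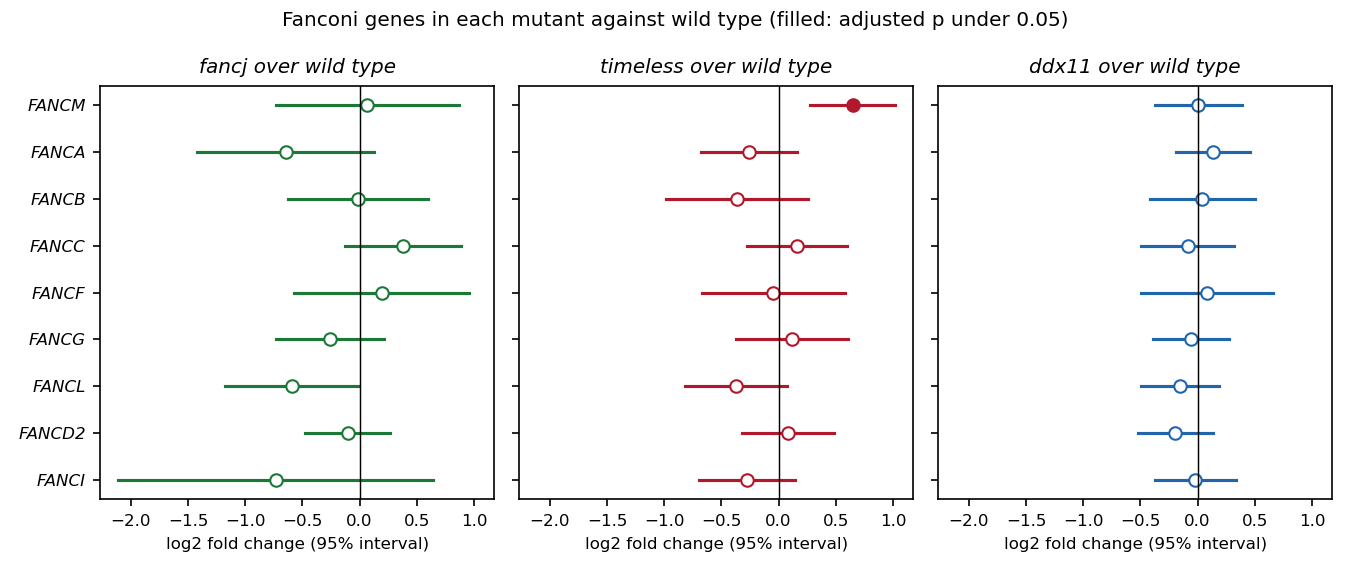
Log2 fold change of each member against wild type, with 95% intervals from edgeR, for the libraries labelled *fancj*, for *timeless* and for *ddx11* (3 libraries each, against 3 of wild type). Filled points have an adjusted p under 0.05. *FANCM* in *timeless*, at 0.65, is the member past the threshold, and the interval of *FANCI* in the libraries labelled *fancj* is the widest.

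*FANCM* (ENSGALG00000031182), the translocase that anchors the core complex, was higher in *timeless* than in wild type. Its levels were 11.02, 10.07 and 10.22 TPM in *timeless* replicates 1 to 3, against 5.71, 7.44 and 7.46 TPM in wild type. Every *timeless* library was above every wild-type library, and the *timeless* libraries differed little among themselves. The log2 fold change was 0.65 (SE 0.16, 95% interval 0.28 to 1.02, edgeR adjusted p = 0.045), which is 1.57-fold. In *ddx11* it was at 9.01, 6.69 and 6.47 TPM, which overlapped with wild type (log2 fold change 0.01, interval -0.37 to 0.39). The libraries labelled *fancj* had 8.49, 11.5 and 3.01 TPM, which spans both the *timeless* and the wild-type levels (log2 fold change 0.07, interval -0.73 to 0.87). Replicates 1 and 2 labelled *fancj* were above every wild-type library, and replicate 3 was below all of them. Leaving out 1 library in turn, this log2 fold change ran from -0.23 to 0.36, so a rise in these libraries is neither shown nor excluded. The call in *timeless* lay close to the threshold. It was lost without any 1 of the 6 libraries, with adjusted p from 0.054 to 0.16 and log2 fold changes from 0.54 to 0.74. It was also lost in 5 of 8 other settings, with an adjusted p of up to 0.22 when all 12 libraries were fitted together. The gene is annotated with several transcripts and its expected counts were not whole, which means that RSEM divided reads between features. Those of *FANCL*, *FANCD2* and *FANCI* were not whole either. The *FANCM* model overlaps with that of *SOUL* in the RefSeq annotation, which was at most 2.09 TPM in any library.

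*FANCL* (ENSGALG00000030022), the catalytic subunit, had the lowest unadjusted p in the libraries labelled *fancj*. Its levels there were 38.7, 29.5 and 30.3 TPM, against 60.1, 41.4 and 54.4 TPM in wild type. The libraries labelled *fancj* all lay below those of wild type, with replicate 1 of the line closest to the lowest wild-type library. The log2 fold change was -0.59 (SE 0.25, 95% interval -1.18 to -0.01), and with an adjusted p of 0.29 it did not pass. Without replicate 3 labelled *fancj* it was -0.76 (adjusted p = 0.09). *FANCL* was at 43.2, 30.1 and 41.7 TPM in *timeless* (log2 fold change -0.37, adjusted p = 0.32). In *ddx11* it was at 51.6, 50.0 and 44.8 TPM (log2 fold change -0.16, adjusted p = 0.74). Both lines overlapped with wild type. The gene overlaps with *VRK2*, a kinase gene, which was at 6.72 to 17.4 TPM.

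The substrates of the ligase form a pair of related proteins, and their RNA showed little correlation over the 12 libraries. Pearson's r of log2(CPM + 1) was 0.076, and -0.076 without replicate 3 labelled *fancj*. *FANCD2* (ENSGALG00000003720) was at 38.9, 40.1 and 26.2 TPM in the libraries labelled *fancj*, 45.0, 30.0 and 41.3 in *timeless*, 42.9, 28.6 and 34.3 in *ddx11*, and 35.2, 39.3 and 40.0 TPM in wild type. The mutant lines overlapped with wild type throughout. Log2 fold changes were -0.10 in the libraries labelled *fancj*, 0.08 in *timeless* and -0.20 in *ddx11*, with adjusted p of 0.77, 0.84 and 0.67. The 3 intervals together ran from -0.52 to 0.48. *FANCD2* overlaps with *LOC101747452* in the RefSeq annotation, for which no level was obtained.

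*FANCI* (ENSGALG00000006658) was at 20.8, 22.2 and 2.35 TPM in the libraries labelled *fancj*, against 27.8, 19.5 and 21.8 TPM in wild type. Replicates 1 and 2 were within the range of wild type, and replicate 3 was 9.15-fold below their mean. The log2 fold change was -0.73 (SE 0.59, interval -2.11 to 0.64, adjusted p = 0.59), and -0.26 (adjusted p = 0.43) without that replicate. In *timeless* *FANCI* was at 22.9, 17.5 and 14.6 TPM, and in *ddx11* at 28.5, 22.9 and 20.3 TPM. Both overlapped with wild type, with log2 fold changes of -0.27 (adjusted p = 0.44) and -0.02 (adjusted p = 0.97). The ratio of *FANCD2* to *FANCI* was 1.88, 1.80 and 11.2 in the libraries labelled *fancj*, 1.97, 1.72 and 2.82 in *timeless*, 1.504, 1.248 and 1.69 in *ddx11*, and 1.26, 2.01 and 1.84 in wild type. In 11 of the 12 libraries it stayed under 3, ranging from 1.25 to 2.82. *FANCI* overlaps with *POLG*, the mitochondrial DNA polymerase gene, which was at 57.4, 66.7 and 21.7 TPM in the libraries labelled *fancj* and at 48.7, 45.9 and 46.1 TPM in wild type.

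Of the module of *FANCA* and *FANCG*, *FANCA* (ENSGALG00000000516) had the larger difference in the libraries labelled *fancj*. Its levels were 12.4, 8.73 and 3.42 TPM, against 12.8, 10.4 and 13.9 TPM in wild type. The log2 fold change was -0.65 (SE 0.33, interval -1.42 to 0.13, adjusted p = 0.40), and -0.38 without replicate 3. *FANCA* was at 12.7, 8.36 and 8.67 TPM in *timeless* (log2 fold change -0.26) and at 14.9, 13.9 and 13.8 TPM in *ddx11* (log2 fold change 0.14). *FANCA* overlaps with *ZNF276* and *SPIRE2*, of which *ZNF276* was abundant, at 15.8 to 46.9 TPM. *FANCG* (ENSGALG00000002009), which binds FANCA directly, was at 18.9, 15.6 and 11.6 TPM in the libraries labelled *fancj*, 21.6, 13.9 and 22.7 in *timeless*, 19.7, 16.8 and 20.1 in *ddx11*, and 18.6, 17.9 and 19.7 TPM in wild type. Its log2 fold changes were -0.26, 0.12 and -0.06 in the same order of mutants, with adjusted p of 0.59 or more.

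*FANCB* (ENSGALG00000016569), the partner of FANCL, was at 5.43, 5.71 and 3.67 TPM in the libraries labelled *fancj*, 5.24, 3.23 and 2.89 in *timeless*, 5.74, 5.54 and 5.04 in *ddx11*, and 4.92, 4.18 and 6.08 TPM in wild type. Replicates 2 and 3 of *timeless* were below all wild-type libraries and replicate 1 was not (log2 fold change -0.37, interval -0.99 to 0.26). *FANCC* (ENSGALG00000012618) was at 10.6, 10.8 and 7.72 TPM in the libraries labelled *fancj*, 9.98, 7.12 and 7.49 in *timeless*, 9.42, 7.06 and 6.32 in *ddx11*, and 7.15, 7.20 and 8.56 TPM in wild type. Its log2 fold change in the libraries labelled *fancj*, 0.38 (interval -0.12 to 0.89, adjusted p = 0.45), was the highest of the 9 members in that line. *FANCF* (ENSGALG00000003660), a partner of FANCC in the complex, was at 20.3, 18.0 and 17.9 TPM in the libraries labelled *fancj*, 14.2, 17.8 and 15.7 in *timeless*, 17.2, 19.2 and 20.9 in *ddx11*, and 11.7, 20.5 and 19.2 TPM in wild type. Its wild-type libraries were the most spread of any member relative to their mean, and its intervals against wild type ran from -0.67 to 0.96 over the 3 mutants.

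The low values of replicate 3 labelled *fancj* were not shared evenly by the members. Set against the mean of replicates 1 and 2, the shortest members were nearly level, *FANCF* (1176 bases) at a ratio of 0.933 and *FANCL* (1828 bases) at 0.889. *FANCC*, *FANCG*, *FANCD2* and *FANCB* had ratios of 0.720, 0.675, 0.664 and 0.659. *FANCA* (5015 bases) was at 0.324, *FANCM* (6785 bases) at 0.301 and *FANCI* (4020 bases) at 0.109. Over all genes the median ratio was 0.68 for 1500 to 3000 bases, 0.462 for 3000 to 5000 and 0.273 above that. *FANCL*, *FANCC* (3127 bases) and *FANCD2* (5107 bases) lay above the median of their length class, *FANCI* lay below it, and the others were near it. Of all 11379 genes, 6.02% had a lower ratio than *FANCI*. Across genes, Spearman's rho between gene length and the deviation from the other libraries of the line was -0.439 in this library, 0.317 and 0.348 in replicates 1 and 2 and -0.074 to 0.087 in wild type. It was -0.274 in *timeless* replicate 3 and -0.32 in *ddx11* replicate 3, beside 0.218 and 0.233 in replicate 1 of these lines. As each library was set against the others of its line, the values within a line are not independent. Those of replicates 1 and 2 labelled *fancj* partly mirror replicate 3. With an offset for length in the fit, the log2 fold change of *FANCD2* in the libraries labelled *fancj* was 0.24 and no member passed. The part of this library's length trend in the other values was not tested.

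**Figure D3:**
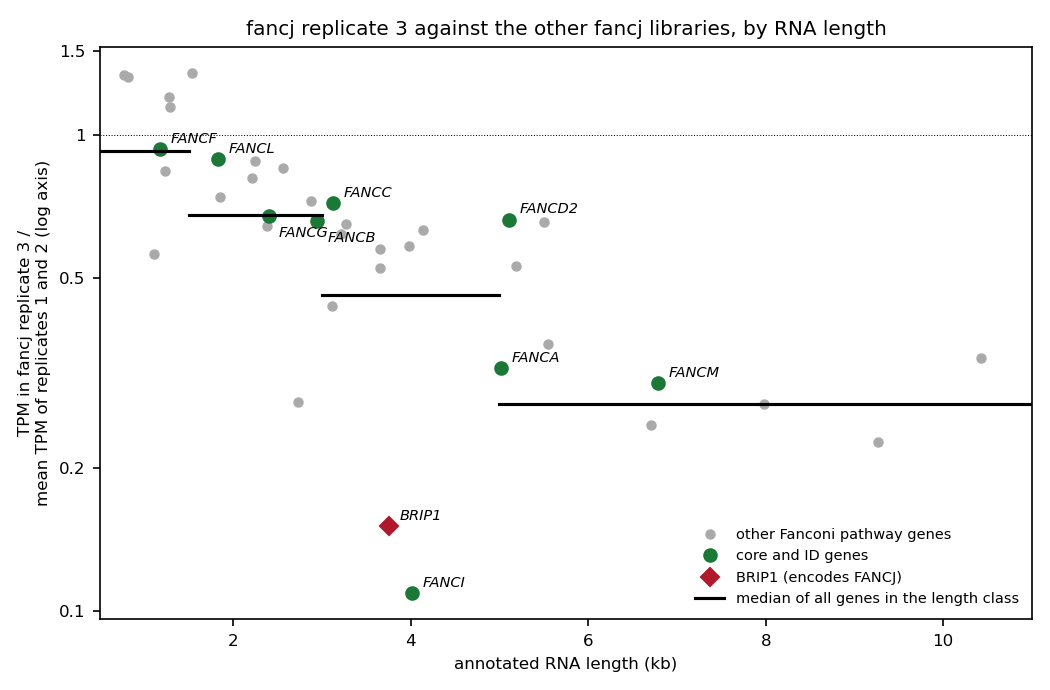
TPM in replicate 3 labelled *fancj* divided by the mean of replicates 1 and 2, on a log axis, against annotated RNA length in kb, for the 9 members, *BRIP1* and the other Fanconi pathway genes, with the median of all genes in 4 length classes as bars. *FANCF* and *FANCL* lie near 1, and *FANCI* is lowest at 0.109, followed by *BRIP1* at 0.151.

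The mutants were then set against each other. These comparisons reuse the mutant libraries above. Between the libraries labelled *fancj* and *timeless*, 0 of 9 members passed (0.850% of all genes did), with 0 at an unadjusted p under 0.05, and 1 did not overlap (21.4% of all genes). That member was *FANCF* (log2 fold change 0.24, interval -0.50 to 0.98). The margin was narrow, with 17.87 TPM in replicate 3 labelled *fancj* and 17.82 TPM in *timeless* replicate 2. Between the libraries labelled *fancj* and *ddx11*, 0 of 9 passed (0.782% of all genes), with 1 at an unadjusted p under 0.05, and 2 did not overlap (19.6%). These were *FANCA* (log2 fold change -0.79, interval -1.53 to -0.04, adjusted p = 0.33) and *FANCL* (log2 fold change -0.44, interval -0.99 to 0.12, adjusted p = 0.47). Both were lower in every library labelled *fancj*.

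Between *timeless* and *ddx11*, 0 of 9 members passed (5.12% of all genes), with 1 at an unadjusted p under 0.05, and 3 did not overlap (24.3%). *FANCM* was higher in each *timeless* library than in any *ddx11* library, with a log2 fold change of 0.64 (SE 0.16, interval 0.28 to 1.01, adjusted p = 0.057). Same-numbered libraries of these lines deviated together, and in the fit with a replicate block *FANCM* passed (log2 fold change 0.65, adjusted p = 0.020). That fit called 1629 of all 11736 genes. DESeq2 called *FANCM* as well, at an adjusted p of 0.011, where it called 1182 of the 11736 genes. *FANCA* (log2 fold change -0.39, adjusted p = 0.27) and *FANCL* (log2 fold change -0.21, adjusted p = 0.61) were lower in every *timeless* library. The difference in *FANCM* between the libraries labelled *fancj* and *timeless* was -0.59 (interval -1.35 to 0.16), so it is not shown that these lines differ.

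Other genes of the pathway were taken from a list of 34, of which 29 were tested. DESeq2 called 3 of these lower in the libraries labelled *fancj*, where it called 1319 of all 11824 genes tested. By edgeR none passed there (4.28% of all genes did), with 6 at an unadjusted p under 0.05. Closest was *BRCA1*, the tumour suppressor that binds FANCJ, at 20.6, 18.7 and 7.15 TPM, against 37.8, 26.2 and 29.5 TPM in wild type (log2 fold change -1.05, SE 0.28, adjusted p = 0.091). The RecQ helicase gene *BLM* came next (log2 fold change -0.72, adjusted p = 0.12). Both lay below all wild-type libraries. In *timeless*, 2 of the 29 passed, both higher, a share near the 8.20% of all genes. DESeq2 called 5 there, 2 higher and 3 lower, where it called 1499 of all 11653 genes. With no TPM limit edgeR called 2 higher and 2 lower, where it called 1388 of 18219 genes. *FAN1*, a nuclease recruited by ubiquitinated FANCD2, was at 10.7, 13.7 and 11.8 TPM in *timeless*, against 5.72, 7.01 and 7.33 TPM in wild type (log2 fold change 0.93, SE 0.20, adjusted p = 0.026). *RFWD3*, a ubiquitin ligase that acts on RPA, was at 18.0, 14.4 and 19.8 TPM in *timeless*, against 12.02, 8.09 and 10.82 TPM in wild type (log2 fold change 0.83, SE 0.21, adjusted p = 0.044).

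The list as a whole did not move the way of *FAN1* and *RFWD3*. In *timeless* 19 of the 29 log2 fold changes were negative and the median was -0.22. The count in *timeless* was 0 without replicate 3 of the line or without any 1 wild-type library, and 1 without *timeless* replicate 1. Over all genes, 667 and 636 passed without *timeless* replicates 3 and 1, and 623, 406 and 349 without wild-type replicates 1 to 3. With every library 955 of 11653 passed. In the libraries labelled *fancj* the median was -0.14. Once replicate 3 was left out 1 gene was lower, where 864 of all 11947 genes passed. In *ddx11* 0 of the 29 passed (2.62% of all genes did), with 1 at an unadjusted p under 0.05. DESeq2 called 0 of them, where it called 547 of all 11470 genes. *REV3L*, the catalytic subunit of polymerase zeta (log2 fold change 0.59, adjusted p = 0.35), and *RFWD3* (log2 fold change 0.41, adjusted p = 0.60) had the lowest adjusted p there, and the median was -0.01.

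**Figure D4:**
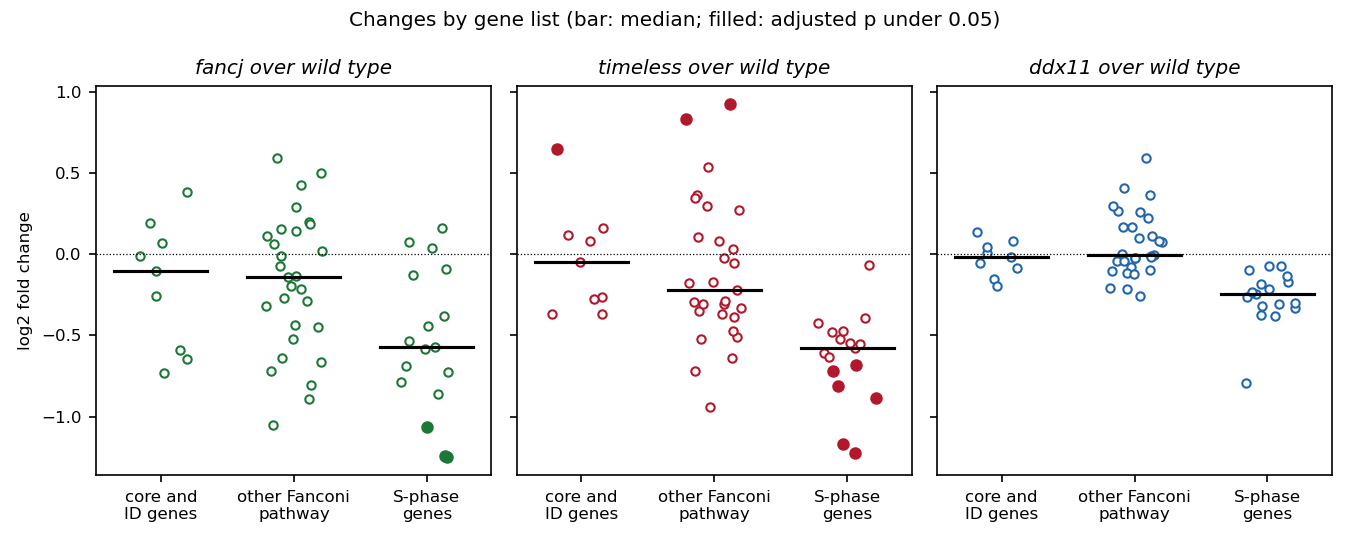
Log2 fold changes against wild type for the 9 members, the 29 other Fanconi pathway genes and the 17 S-phase genes, in the libraries labelled *fancj*, in *timeless* and in *ddx11*. Each point is 1 gene, filled where its adjusted p was under 0.05, and each bar is a median. The members centre on -0.10, -0.05 and -0.02, and the S-phase genes on -0.57, -0.58 and -0.24.

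As RNA of this pathway is known to vary with the cell cycle, 17 S-phase genes tested from a list of 20 were examined beside the members. In the libraries labelled *fancj* 3 of the 17 passed, where 4.28% of all genes tested did. All 3 fell, namely *CDT1*, *TK1* and *CDC6*. *CDT1*, which loads the replicative helicase, was at 124, 113 and 74.5 TPM, against 219.6, 204 and 236 TPM in wild type (log2 fold change -1.06, SE 0.16, adjusted p = 0.016). *TK1*, thymidine kinase, had a log2 fold change of -1.24 (adjusted p = 0.041), and *CDC6*, another loading factor, one of -1.25 (adjusted p = 0.045). Of the 17 log2 fold changes 14 were negative, and the median over the list was -0.57, beside 0.03 for all genes. The count was 6 without replicate 3 labelled *fancj*, 1 without replicate 1, and 0 without replicate 2 or any 1 wild-type library. Over all genes, 864, 667 and 151 passed without replicates 3, 1 and 2 labelled *fancj*, of 11665 to 11947 tested. Without wild-type replicates 1, 2 and 3 the number was 104, 45 and 50, of 11795 to 11858 tested. With every library it was 506.

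In *timeless* 6 of the 17 passed, all of them lower, where 8.20% of all genes tested did. *MCM4*, a subunit of the replicative helicase, had a log2 fold change of -1.17 (adjusted p = 0.0063) and *CCNE2*, cyclin E2, one of -1.23 (adjusted p = 0.0085). *CDT1* (-0.68), *E2F1* (-0.81), *MCM3* (-0.72) and *TK1* (-0.89) had adjusted p of 0.022 to 0.031. All 17 log2 fold changes were negative and the median was -0.58. The count was 3 without *timeless* replicate 1, 7 without replicate 2, 2 without replicate 3 and 2 without any 1 wild-type library. Over all genes, 636, 957 and 667 passed without *timeless* replicates 1, 2 and 3, of 11517 to 11743 tested. Without wild-type replicates 1, 2 and 3 the number was 623, 406 and 349, of 11641 to 11691 tested. With every library it was 955. *MCM4* and *CCNE2* lie on a chromosome whose 660 tested genes had a median of -0.57 in *timeless*, where the other 28 chromosomes ran from -0.05 to 0.06, and no member lies on it. In *ddx11* all 17 log2 fold changes were negative as well, with a median of -0.24. There 0 of the 17 passed (2.62% of all genes did), with 2 at an unadjusted p under 0.05. DESeq2 called 0 of them, where it called 547 of all 11470 genes. *CDC6* (log2 fold change -0.79, adjusted p = 0.25) and *E2F1* (log2 fold change -0.37, adjusted p = 0.27) came closest. The part of these genes in the members' values was not tested.

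Genes with the most similar pattern to a member were sought among 6361 genes by Pearson's r of log2(CPM + 1) over the 12 libraries. For *FANCM* these were *GTF3C1* (r = 0.961), *CALU* (r = 0.944) and *TMEM127* (r = 0.934). *FANCL* was most like *RFC5* (r = 0.921), *HNRNPD* (r = 0.920) and *SPDL1* (r = 0.920), and *FANCD2* most like *PNPT1* (r = 0.966), *SNX27* (r = 0.951) and *DDX27* (r = 0.944). Among the members themselves, the closest pair was *FANCA* and *FANCI* (r = 0.869), and without replicate 3 labelled *fancj* it was *FANCA* and *FANCL* (r = 0.823). *FANCG* and *FANCD2* had r of 0.748 with that library and 0.751 without it. These values share libraries, depth and the length trend, and describe the 12 libraries only.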

How the data were processed

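The members, by symbol alone, and the gene lists were chosen with earlier results of these data known. Per the study's methods, the authors mapped reads to GRCg6a by Bowtie 2 and quantified genes by RSEM on an Ensembl annotation; tool versions and the use of strand are not given in the sources used here. The deposited expected count is RSEM's estimate of reads per gene, not normalized for depth. The deposited TPM was normalized by the authors for gene length and library total. Gene lengths are those deposited by the authors; deposited FPKM was not used.

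Expected counts were rounded and analysed by edgeR 4.0.16 under R 4.3.3 (TMM, quasi-likelihood test, Benjamini-Hochberg adjustment over all genes tested), 6 libraries to a fit, for genes whose mean reached 1 TPM in either line. The study used EBSeq, which was not run. SEs are the absolute log2 fold change over the square root of F. Labels name separate populations as replicates, and no library duplicated another of its own line. Duplicates across lines were not checked. Numbers were taken to pair libraries where the deviations of every same-numbered pair correlated over 0.1. This held between *fancj* and wild type (0.267, 0.114 and 0.183), *fancj* and *timeless* (0.349, 0.185 and 0.49) and *timeless* and *ddx11* (0.423, 0.578 and 0.406). Alternatives were DESeq2 1.42.0 (size factors, Wald test), other filters, the replicate block, all 12 libraries in 1 fit and each library left out. A length offset, and all list counts under the alternatives, were chosen after seeing the data. Scripts were tested on simulated data. The genes named are all members, list genes called against wild type or else the 2 with the lowest adjusted p, and the 3 genes most like *FANCL*, *FANCD2* and *FANCM*. Overlaps between gene models, and the chromosome of each gene, came from RefSeq coordinates on GRCg7b, whereas the reads were mapped to GRCg6a. Of 13869 symbols, 11656 matched that annotation.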

Additional observations from a re-analysis of the deposited data

How the results depend on the processing

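The number of members past the threshold was 0 in *timeless* against wild type with no TPM limit, with at least 1 TPM in both lines, with the replicate block, with all 12 libraries in 1 fit, with the length offset, and without any 1 library (0 to 0). It was 1 in *timeless* against *ddx11* with DESeq2's Wald test and with the replicate block, which called 1182 and 1629 of all 11736 genes. Under these 5 alternatives *FANCM* in *timeless* kept log2 fold changes of 0.60, 0.66, 0.66, 0.65 and 0.68 (adjusted p 0.08, 0.05, 0.059, 0.22 and 0.09). By the rule used, the replicate numbers of *timeless* and wild type were not taken to pair libraries. Their deviations correlated at 0.103, -0.092 and 0.248, and 2 of the 3 *timeless* libraries correlated best with their own number. A cut-off on correlation cannot show that pairing is absent. The block changed no other member's call. Signs turned only for values not past the threshold. Against wild type, *FANCB* in *fancj* was 0.021 with at least 1 TPM in both lines and 0.080 with the length offset, which also gave *FANCD2* 0.24 in *fancj* and *FANCM* -0.061 in *ddx11*, and the block gave *FANCM* -0.0097 in *fancj*. Between mutants the offset gave *FANCD2* 0.11 in *fancj* against *timeless* and *FANCB* 0.032 in *fancj* against *ddx11*, and the block gave *FANCM* -0.031 there. Leaving out 1 library in turn, ranges that crossed 0 were, in *fancj* against wild type, *FANCM* -0.23 to 0.36, *FANCB* -0.11 to 0.13 and *FANCF* -0.040 to 0.37. In *timeless* against wild type they were *FANCF* -0.26 to 0.14, *FANCG* -0.078 to 0.30 and *FANCD2* -0.026 to 0.23. In *ddx11* against wild type they were *FANCB* -0.058 to 0.19, *FANCF* -0.13 to 0.27, *FANCG* -0.14 to 0.0012, *FANCI* -0.10 to 0.12 and *FANCM* -0.10 to 0.10. Between mutants they were *FANCI* -0.78 to 0.016 in *fancj* against *timeless*, *FANCD2* -0.020 to 0.17, *FANCF* -0.12 to 0.25 and *FANCM* -0.25 to 0.33 in *fancj* against *ddx11*, and *FANCG* -0.027 to 0.37 in *timeless* against *ddx11*. Where the cause of a turn is not given by the construction of the alternative, the cause was not tested. Over all genes, the count of calls across alternatives other than leaving out a library ran from 116 to 1319 in *fancj*, 611 to 1499 in *timeless* and 142 to 547 in *ddx11* against wild type, beside 506, 955 and 301 in the report. Leaving out 1 library it ran from 45 to 864, 349 to 957 and 98 to 462 in the same order. Between mutants it ran from 13 to 847 for *fancj* against *timeless* (0 to 242 leaving out 1 library), 10 to 836 for *fancj* against *ddx11* (3 to 491) and 257 to 1629 for *timeless* against *ddx11* (189 to 676), beside 102, 93 and 601. With 3 libraries per line, an absence of calls does not show equal levels, and the intervals in the libraries labelled *fancj* were the widest.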
